A study of Magallana angulata with 3 samples.

Results

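A group of 85 genes, out of 28027 gene identifiers, had lower messenger RNA levels in the triploid adductor muscle library of the Fujian oyster (Magallana angulata) than in either diploid library, while the diploid libraries were alike. The genes were chosen by their RPKM values (read numbers divided by the length of the gene and by the depth of the library) in these same 3 libraries. The mean over the 3 libraries had to be at least 10 and under 1000 RPKM. On the scale log2(RPKM + 1), the triploid library had to be at least 1 (2-fold) below each diploid library, and the diploid libraries less than 1 apart. This scale understates the differences of low genes. The 85 genes were 1.41% of the 6046 genes within the limits on mean RPKM. Since the choice used all 3 libraries, the difference between the triploid and the diploids is given as a description, with no test.

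The libraries were made from the adductor muscle, which closes the shell. There is 1 library for each label: T from triploid oysters, and DF and DM from diploid oysters. What F and M stand for, and how many animals went into a library, is not stated in the labels. Per the labels, diploid parents were crossed for the diploids, triploids were made from the same parents by chemically blocking release of the second polar body, and both were reared for a year at the same temperature and food supply. The T library differs from the others in ploidy and in the chemical treatment that made it, and these cannot be told apart. With 1 library per label there is no replicate error. Animal, library preparation and ploidy therefore cannot be told apart either.

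As background, the adductor of bivalves joins a striated part, used for fast closing, with a smooth part that can hold the shell shut for a long time at low energy cost, a state called catch. Retaining the second polar body leaves the egg with an additional maternal chromosome set. Triploid oysters are farmed because they develop little gonad and often grow faster. None of the deposited identifiers comes with a name (0 of 28027 matched the RefSeq genes of this species), so that each gene is given by its identifier, with no function, position or sequence. Tissue and cell type markers could not be looked up for the same reason.

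The read totals behind the RPKM values, recovered from the values themselves, were 2137859 in T, 1805591 in DF and 2057805 in DM. The lower levels in T were therefore measured in the deepest library. The share of reads that went to the single most abundant gene was 23.9% for T, 17.6% for DF and 33.8% for DM. Such a share lowers the RPKM of every other gene in the library. Over the 6046 genes, the median log2 difference was -0.29 for T minus DF, 0.44 for T minus DM and -0.68 for DM minus DF. Median-of-ratios scaling, which centres the libraries on the typical gene, multiplies every ratio of DM to DF by 1.74. Single genes are given on the deposited scale, and their likeness or difference between DM and DF holds for that scale.

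The members were moderately expressed genes, as the limits on mean RPKM require. Their level was between 0 and 469 RPKM in T (median 11.5), between 10.8 and 988 RPKM in DF (median 37.7) and between 8.76 and 996 RPKM in DM (median 33.8). Together they took 3387 reads in T, which is 0.158% of its total, against 9114 reads in DF (0.505%) and 10076 in DM (0.490%). The 5 members with most reads held 41.5% of this sum for T, 35.4% for DF and 37.4% for DM. The other 80 members took 0.0927% of the total in T, 0.326% in DF and 0.307% in DM. Lower sums in T follow from the rule, for the members together and for any part of them. In bulk tissue, fewer cells of a type and less RNA per cell cannot be told apart.

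**Figure D1:**
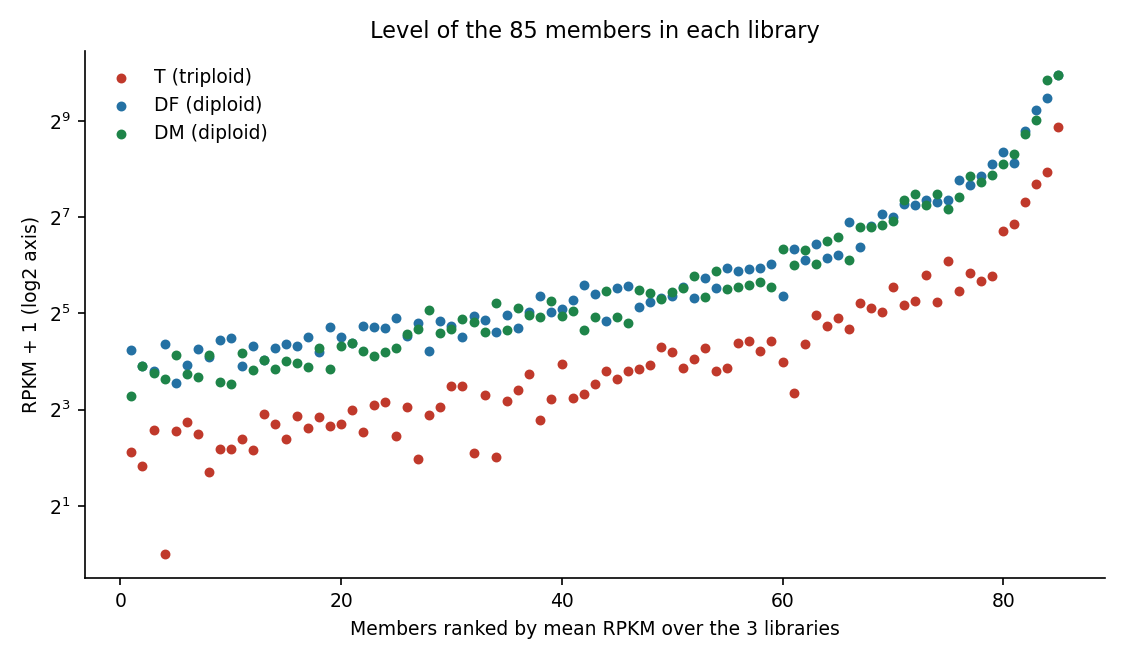
RPKM + 1 on a log2 axis for each of the 85 members, ranked along the horizontal axis by mean RPKM, with 1 point per library (T red, DF blue, DM green). The T point lies below both diploid points for every member, as the rule requires, from the least abundant members to the most abundant, at 469 RPKM in T.

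The size of the difference varied among the members. The level in T had a median of 30.7% of the mean of DF and DM and reached 48.2% at most. It was under 20% in 9 members, between 20 and 30% in 32, between 30 and 40% in 34, and between 40 and 50% in 10. Taking for each member the smaller of its differences from DF and DM, 54 members were between 1 and 1.5 on the log2 scale, 19 between 1.5 and 2, and 12 at 2 or more. Most members therefore lay close to the limit. The median log2 difference was -1.64 for T minus DF and -1.51 for T minus DM, which is -1.34 and -1.95 relative to the medians of all 6046 genes.

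The depth behind a member sets how firmly its value can be read. Intervals given here are 95% exact intervals from the recovered reads (Clopper-Pearson for ratios), which cover counting error only, not differences between animals or preparations. Reads amplified by PCR are not independent molecules, so the intervals can be too narrow. They also come from the same reads by which the members were chosen. Choosing low values in T can place the intervals too low, and they give no separate support for the choice. In 71 of the 85 members the interval of the level in T lay below 100% of DF and below 100% of DM; these were 1.17% of the 6046 genes. The other 14 members had at most 55 reads over the 3 libraries together (median 36.5), and a level in T equal to that of a diploid library lay within their counting error. All 46 members with at least 100 reads were among the 71.

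**Figure D2:**
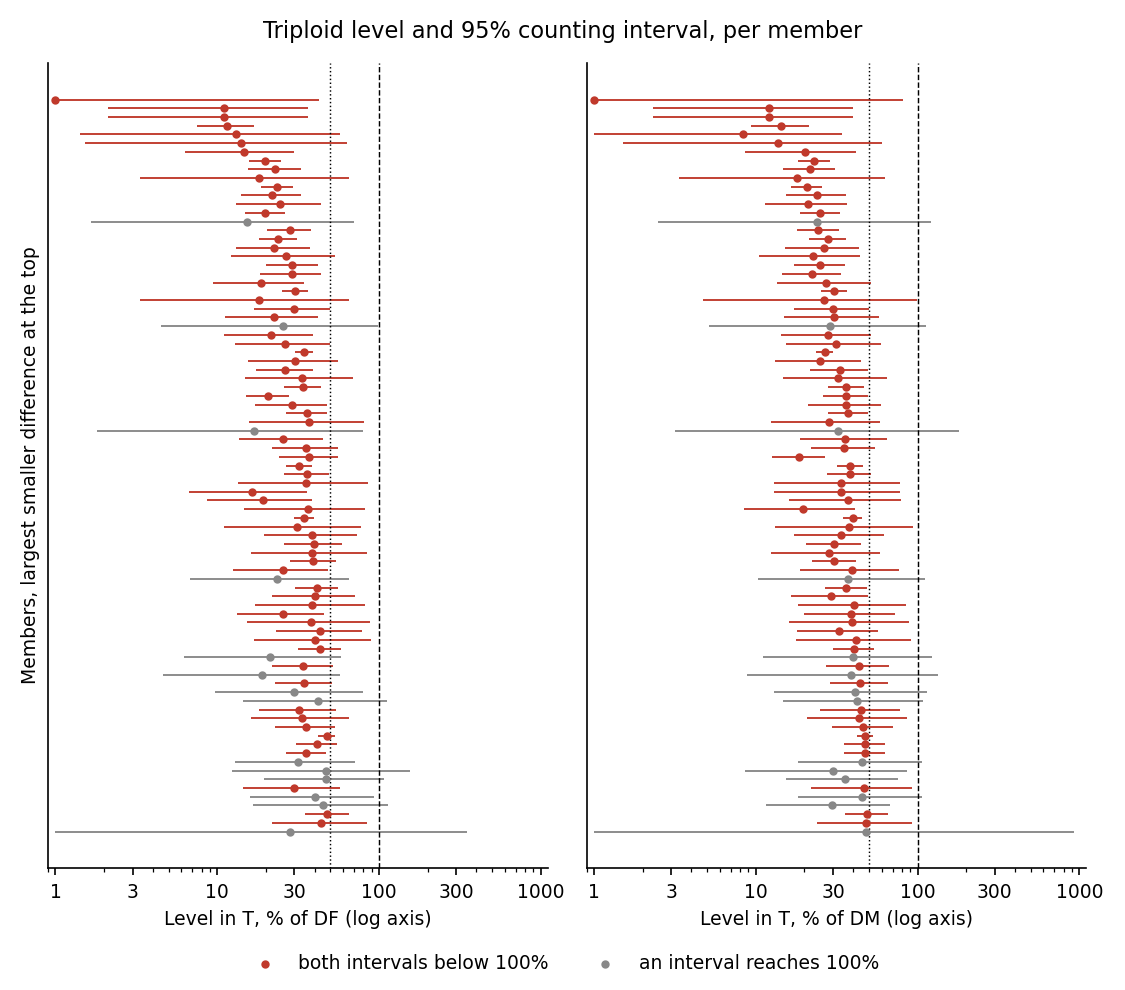
Level in T as a percentage of DF (left) and of DM (right), on log axes, with 95% counting intervals, for the 85 members from the largest smaller difference at the top. Dashed lines mark 100% and dotted lines 50%, values under 1% are drawn at 1%, and the 14 grey members have an interval that reaches 100% on at least 1 side.

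For 23 members, named here after their values were seen, the interval lay below 50% of both diploid libraries; these were 0.38% of the 6046 genes. Their level in T had a median of 25.2% of the diploid mean, between 11.5 and 37.0%, and they had between 50 and 2392 reads in all. CGI_10011745 combined a large difference with many reads. Its level was 9.10 RPKM in T, 79.5 in DF and 63.2 in DM, from 29, 214 and 194 reads in that order. T was thus at 11.4% of DF (95% counting interval 7.48 to 16.9) and at 14.4% of DM (9.39 to 21.3).

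Several other members of these 23 had a T level of at most 22.8% of the diploid mean. CGI_10001623 had 54.0 RPKM in T, 273 in DF and 235 in DM, resting on 98, 419 and 411 reads. CGI_10005445 had 36.9 RPKM in T, 158 in DF and 178 in DM, from 99, 357 and 460 reads. The first was slightly lower and the second slightly higher in DM than in DF, and T was well below both. CGI_10012368 had 43.0 RPKM in T, 217 in DF and 171 in DM. CGI_10019610 had 35.2 RPKM in T, 154 in DF and 163 in DM. CGI_10002631 had 50.2 RPKM in T, 230 in DF and 211 in DM. In these 5 genes the upper limit of the counting interval was between 24.7 and 33.1% of DF and between 25.8 and 36.1% of DM. CGI_10002335, a lower gene, had 5.90 RPKM in T, 40.3 in DF and 29.3 in DM, on 9, 52 and 43 reads.

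In 9 further genes of this group the T level was between 22.7 and 34.9% of the diploid mean. CGI_10020740 had 56.5 RPKM in T, 202 in DF and 232 in DM. CGI_10020235 had 31.4 RPKM in T, 132 in DF and 113 in DM. CGI_10015748, a short gene with a recovered coding length of 201 nt, had 37.2 RPKM in T, 152 in DF and 176 in DM. In these 3 genes the DM level was between 0.854 and 1.16 times that in DF. CGI_10007081 had 19.7 RPKM in T, 67.6 in DF and 78.8 in DM. CGI_10016276 had 13.0 RPKM in T, 45.1 in DF and 58.0 in DM. CGI_10027897 had 8.50 RPKM in T, 37.7 in DF and 32.2 in DM. The reads of these 3 in T were 41, 30 and 20, fewer than in either diploid library. CGI_10027463 had 8.02 RPKM in T, 30.4 in DF and 24.3 in DM. CGI_10025175 had 54.5 RPKM in T, 162 in DF and 151 in DM. CGI_10002825 had 24.5 RPKM in T, 119 in DF and 67.8 in DM. Its level in DM was 0.571 times that in DF (95% counting interval 0.461 to 0.705) as deposited, the ratio farthest from 1 among the 23. After median-of-ratios scaling its log2 difference of DM minus DF was -0.01, and that of CGI_10013093, another of the 23, was 1.17.

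The 5 members with the highest mean RPKM spanned weak and firm differences. CGI_10026160, the most abundant, had 469 RPKM in T from 460 reads, against 988 RPKM in DF from 819 reads and 996 RPKM in DM from 941 reads. On the deposited scale DF and DM lay within counting error of each other, and T was at 47.4% of DF (42.2 to 53.2) and 47.1% of DM (42.0 to 52.7), so that a level of 50% lay within both intervals. After median-of-ratios scaling CGI_10026160 had a log2 difference of 0.81 for DM minus DF and of -0.78 for T minus DF, short of 2-fold. CGI_10013093 had the most reads of all members, 338 for T, 831 for DF and 1223 for DM, or 245, 714 and 921 RPKM. T was at 34.4% of DF (30.2 to 39.0) and at 26.6% of DM (23.5 to 30.03). Here the diploid libraries also differed beyond counting error, DM being 1.29-fold above DF (1.18 to 1.41).

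CGI_10015775 had 206 RPKM in T, 595 in DF and 519 in DM, where 281, 686 and 682 reads were counted. CGI_10006558 had 158 RPKM in T, 444 in DF and 425 in DM, where 70, 166 and 181 reads were counted. Both had T at 34.6 to 39.7% of either diploid library. CGI_10021416 had 114 RPKM in T, 277 in DF and 315 in DM, on 66, 135 and 175 reads. Its interval against DF, 30.3 to 55.8%, reached past 50%. Among the 5 members with most reads were also CGI_10020964 and CGI_10015909. CGI_10020964, with 2226 nt the longest member, had 33.6 RPKM in T, 111 in DF and 110 in DM, on 160, 448 and 503 reads. The diploid values lay within counting error of each other. CGI_10015909 had 105 RPKM in T, 327 in DF and 273 in DM, on 167, 441 and 419 reads.

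The members with the largest differences mostly rested on few reads. CGI_10002961 is listed at 0 in T, with 19.5 RPKM in DF from 9 reads and 11.4 RPKM in DM from 6 reads. Taking a floor of 3 reads in T, which is 5.50 RPKM in this gene, it was at least 3.55-fold lower than in DF and at least 2.08-fold lower than in DM, if the diploid reads are taken as exact. The counting intervals, which cover their error too, allowed differences down to 2.34-fold from DF and 1.22-fold from DM. CGI_10003466 had 3.29 RPKM in T, 29.9 in DF and 27.4 in DM. CGI_10017135 had 2.94 RPKM in T, 26.7 in DF and 24.5 in DM. Both had 3 reads in T, against 23 in DF and 24 in DM. They differed in recovered length, 426 nt for CGI_10003466 and 477 nt for CGI_10017135. They were the only members to share all 3 read counts, as did 70 of the 5285 genes with at least 50 reads with some other gene. Whether they are copies that share reads was not tested. CGI_10013375 had 3.03 RPKM in T, 23.3 in DF and 36.2 in DM, on 2, 13 and 23 reads. T was at 13.0% of DF with an interval of 1.42 to 57.4%.

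Just inside the limit, the smallest differences were those of CGI_10010972, CGI_10015328 and CGI_10005609. CGI_10010972 had 13.0 RPKM in T, 46.2 in DF and 27.0 in DM, but these rest on 1, 3 and 2 recovered reads in a recovered length of 36 nt, both of which can be larger by a common factor. CGI_10015328 had 14.4 RPKM in T, 33.0 in DF and 29.997 in DM. CGI_10005609 had 18.7 RPKM in T, 39.0 in DF and 38.5 in DM, from 68, 120 and 135 reads. Just outside it, CGI_10024225 had 140 RPKM in T, 281 in DF and 309 in DM. CGI_10011398 had 13.5 RPKM in T, 27.9 in DF and 28.9 in DM. CGI_10015991 had 8.94 RPKM in T, 18.8 in DF and 19.6 in DM. The limit therefore separates genes in which the smaller of the differences from DF and DM is nearly equal. The other difference can be larger, as in CGI_10010972, where T was at 28.2% of DF.

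**Figure D3:**
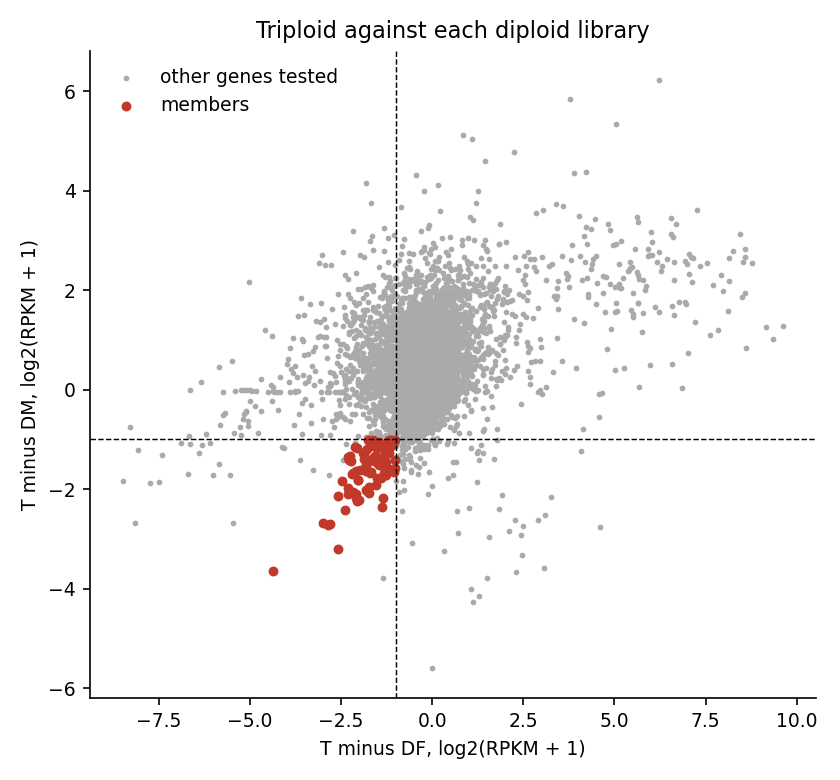
Log2 difference of T minus DF (horizontal) and of T minus DM (vertical) for the 6046 genes, with the 85 members in red and dashed lines at -1. The 25 grey genes below both lines are those in which DF and DM were 2-fold or more apart.

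In all, 110 of the 6046 genes were at least 2-fold lower in T than in both diploid libraries. In 25 of them DF and DM were 2-fold or more apart, and these were left out by the rule. DF was the higher diploid library in 24 of those 25. As deposited, DM was above DF in 31 of the 85 members (36.5%), in 20.9% of the 6046 genes and in 27.6% of the 3539 genes whose diploid levels were less than 2-fold apart. After median-of-ratios scaling it was above DF in 79 members (92.9%), in 53.4% of the 6046 genes and in 83.1% of those 3539. The counting interval of the DM to DF ratio held 1 in 72 members as deposited, lay above 1 in 4 and below 1 in 9. After the scaling it held 1 in 41 members, lay above 1 in 44 and below 1 in 0. The median log2 difference of DM minus DF was -0.13 in the members, against -0.34 in the 3539 genes, as deposited, and 0.65 against 0.43 after the scaling. The rule used these values, and nothing is read from the contrast.

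By the same limits with the direction turned, 139 genes were higher in T than in both diploids, which were alike. With DF as the library set apart, 76 genes were lower in DF only, and with DM set apart 720 were lower in DM only. After median-of-ratios scaling the counts were 84 lower only in T, 133 higher only in T, 199 lower only in DF and 228 lower only in DM. A diploid library stood apart on the low side in more genes than T after scaling. Genes higher in T alone outnumbered lower ones on both scales, at 62.1% of both directions together as deposited and 61.3% after scaling. The limits on mean RPKM include the T value itself. A gene raised in T therefore passes the lower limit at lower diploid levels than a gene lowered in T. The directions do not draw on the same genes, and nothing is read from the excess.

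Scaling also decides which genes belong to the group. Under median-of-ratios scaling 57 of the 85 members still met the 3 limits on differences. The level in T remained below both diploid libraries in all 85, as it had to, because this scaling raises T against DF by less than 2-fold. In 15 the difference from DF was now under 2-fold, and in 18 DF and DM were now 2-fold or more apart (some members are in both counts). None could lose the 2-fold difference from DM, because this scaling lowers T against DM. The median difference of the members was then -1.34 for T minus DF and -2.00 for T minus DM. Set against the median of all 6046 genes under the same scaling, it was -1.33 and -1.95, where the deposited scale gave -1.34 and -1.95. These values are nearly equal by construction, since a scaling shifts the members and the 6046 genes alike. Trimmed mean scaling kept 61 members, and setting the sums equal with the 20 most abundant genes left out kept 75. The same 57 members met the limits on the deposited scale and under the 3 other scalings, and 48 of these were among the 71 whose counting intervals lay below 100%. The intervals meant here are those of the deposited scale. Of the 23 with intervals below 50%, 19 met the 3 limits on differences under each of these scalings. CGI_10013093, CGI_10007081, CGI_10016276 and CGI_10015748 were the exceptions.

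**Figure D4:**
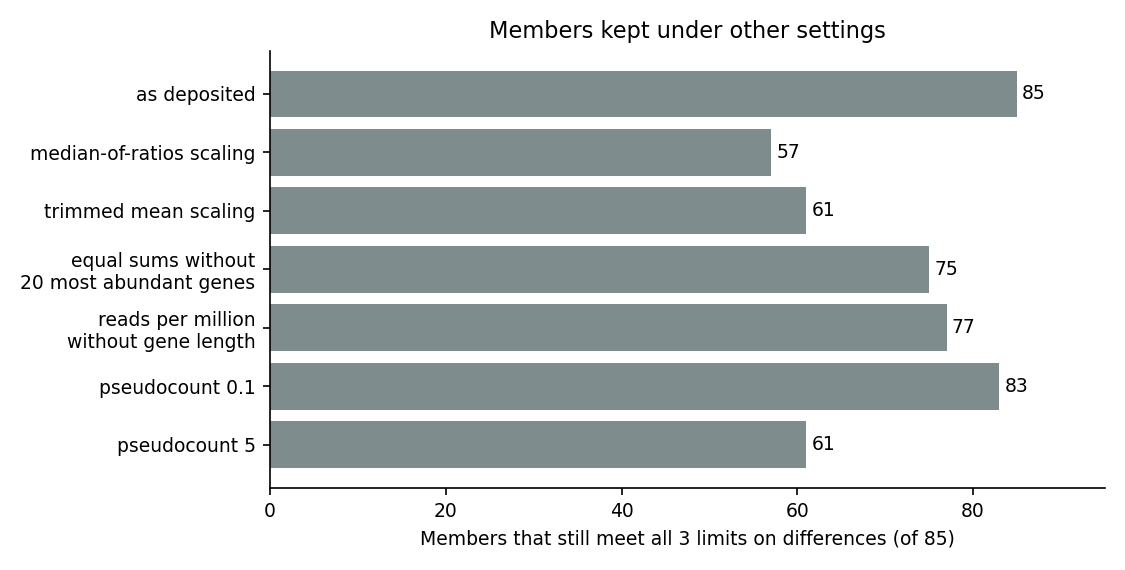
Number of the 85 members that still meet the 3 limits on differences under each scaling, without gene length, and with other pseudocounts. Median-of-ratios scaling keeps the fewest, 57, and a pseudocount of 0.1 keeps 83.

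Coding length, which the rule did not use as such, was recovered together with the reads and is a lower limit. The members were shorter than the genes they were chosen from. Their median length was 606 nt (quartiles 456 and 849), against 837 nt (483 and 1386) over the 6046 genes. Of the members 64, or 75.3%, were under 900 nt, against 53.4% of the 6046 genes. The members made up 3.10% of genes between 450 and 600 nt, 1.87% between 600 and 900 nt, 0.802% between 900 and 1500 nt and 0.683% from 1500 nt up, but 1.49% under 450 nt. The members also had fewer reads over the 3 libraries, with a median of 106 against 151. At a given RPKM a shorter gene has fewer reads, so this is not a separate trait. Among genes with at least 100 reads the difference was still seen, with a median of 740 nt in 46 members against 1113 nt in 4035 genes. Beyond this, the part of read number in the difference was not tested.

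**Figure D5:**
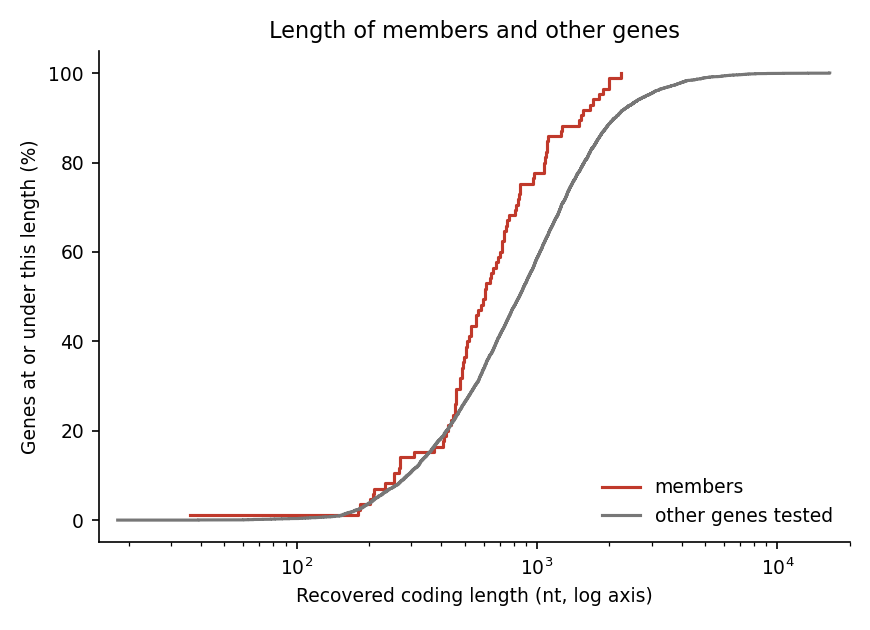
Cumulative percentage of genes by recovered coding length (nt, log axis) for the 85 members (red) and the other genes within the same limits on mean RPKM (grey). The curves are close up to about 450 nt, and from there the members' curve runs to the left of the other, with medians of 606 nt in the members and 837 nt over all 6046 genes.

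Abundance set the members apart less. Of those with a mean of 10 to 30 RPKM there were 46 (1.41% of genes at that level), from 30 to 100 RPKM 24 (1.27%), and from 100 to 1000 RPKM 15 (1.68%). The level in T had a median of 29.0, 34.0 and 29.98% of the diploid mean in these 3 bands. All 24 and all 15 members of the higher bands, but 32 of the 46 in the lowest, had counting intervals below 100%. By reads, the members were 2.33% of genes with under 30 reads, 1.87% from 30 to 100, 0.951% from 100 to 300 and 1.42% from 300 up.

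No members had consecutive identifier numbers. The closest pairs were 7 apart, and 6 pairs of neighbours in the list were at most 15 apart. For the 41 other genes within the limits on mean RPKM whose number was next to that of a member, the median log2 difference was -0.60 for T minus DF and 0.47 for T minus DM. Over the 6046 genes these medians were -0.29 and 0.44. T was the lowest library in 12 of the 41 (29.3%), and in 21.2% of the 6046 genes. Within 5 numbers of a member there were 182 such genes, with medians of -0.40 and 0.25, and T was lowest in 31.3% of them. Whether neighbouring numbers are neighbours in the genome is not stated in the sources used here.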

How the data were processed

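For each library the authors deposited a table of RPKM values by gene identifier; the unit is in the deposited file names and was checked on the values. TopHat is named, without version, in the submitters' processing notes. How reads were counted, and on which build and annotation, is not given in the sources used here. RPKM divides by gene length and read total, so a few abundant genes in a library lower all others.

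Read totals were recovered from the spacing of low values, assuming coding lengths in multiples of 3 nt. Each gene then received the smallest length that gave whole reads in all 3 libraries (within 0.0001 of a read plus the rounding of the value). This held for 19931 of 19931 genes above 0. The reads sum to between 97.5 and 98.0% of the totals and are lower limits. The recovery and the rule were tested on simulated data. Python 3.11.15, numpy 2.4.6 and scipy 1.17.1 were used.

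The members, lists and alternatives were chosen with earlier results of these data known. Genes named are the 5 members with the largest smaller difference, the highest mean RPKM and most reads, those at 0 in T, the 3 nearest the limit on each side and any with consecutive numbers; the 23 with intervals below 50% were added after their values were seen. Lists of tissue markers by product name were not used, because the identifiers carry no names. No test was made between libraries, since each label has 1.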

Additional observations from a re-analysis of the deposited data

How the results depend on the processing

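The 85 genes lower only in T, and the 71 whose counting intervals also lay below 100%, were recounted under 41 other settings, of which 24 gave a count within 1.5 times the main one. These 24 include the counts with DF as the library set apart, 76 genes (67 with the interval), which hold none of the members. A like count therefore does not mean the same genes. In the settings outside these 24 the number moved with the limits. Counts for the 85 were 318 with a mean of at least 1 RPKM, 56 with a mean of at least 20 RPKM and 358 with no filter on low values. A fold limit of 1.5 gave 220 genes, and 154 with the interval; a limit of 4 gave 12 either way. With DM as the library set apart there were 720 genes (623 with the interval), and 139 (133) were raised only in T. Some of these settings were chosen after seeing the data. At least 100 reads left 46 genes with or without the interval, and an interval below 50% left 23. Median-of-ratios scaling with another library or direction gave 199 genes for DF set apart, 228 for DM set apart and 133 raised only in T. These limits count different or fewer genes by construction. Recounting the 85 under median-of-ratios scaling with the counting interval was also chosen after seeing the data. It gave 71 genes, of which 51 were members, and is among the 24. Median-of-ratios scaling chose 84 genes, of which 56 were members; the limits on mean RPKM were applied to the scaled values there. For the 33 genes named, 370 of 396 recomputed differences stayed on their side of 2-fold, 22 no longer reached it, 4 newly reached it and 0 changed sign. No sign could change here, because other pseudocounts and leaving out gene length keep the order of the libraries. The scalings moved T by less than the differences of these genes. Depth limits the low members: over 1 kb, a single read gives 0.468 RPKM in T, 0.554 in DF and 0.486 in DM. No paired analysis was possible because a label has only 1 library.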
